A study of Mus musculus with 8 samples.

Results

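ATP-binding cassette (ABC) genes were compared between MYC-driven liver tumours and normal liver. Members were all genes whose symbol starts with Abc, a letter from a to g and a digit, named by probe sets with exactly 1 gene symbol, and each gene was read from its probe set with the highest mean. The rule found 48 genes among 19937 measured. The 4 MYC tumours came from mice with human c-MYC overexpressed in the liver, under a CEBPB-LAP promoter controlled by doxycycline, and were collected at the humane endpoint. The 4 control livers were normal livers of mice that the labels call matched, without giving strain, age or genotype, and the protocol text on c-MYC is attached to their records too. Whether these mice carried part of the transgene system or received doxycycline is not given in the sources used here. Total RNA of each sample was hybridised to 1 Affymetrix Mouse Gene 1.0 ST array, and all values below are log2 values as deposited.

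ABC proteins bind and hydrolyse ATP at paired nucleotide-binding domains, and most of them use it to move a substrate across a membrane. In hepatocytes, pumps in the canalicular membrane push bile salts, phospholipid, conjugated bilirubin, sterols and drugs into bile, and pumps in the sinusoidal and other basolateral membranes return conjugates to the blood. Other members work in peroxisomes, mitochondria and lysosomes, and the ABCE and ABCF proteins have no membrane domain and act on ribosomes.

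In limma, 11 of the 48 ABC genes were higher and 13 lower in MYC tumours at an adjusted p under 0.05, 24 in all. Over both directions, 28.9% of all genes tested passed. By direction, the higher members were 22.9% beside 16.2% of all genes, and the lower members 27.1% beside 12.7%. Of the 48 members, 3 higher and 10 lower ones also reached 2-fold, beside 5.54% higher and 4.68% lower among all genes (10.2% in all). The groups did not overlap for 23 members (47.9% of members and 30.2% of all genes), with tumours above for 10 and below for 13, beside 16.3% and 13.9% of all genes. The median log2 change was -0.10 over the members and -0.04 over all genes. It was -0.18 over the 37 members with a group mean above the level guide defined below. Calls went both ways, so the members did not move one way as a family, although more falls than rises reached 2-fold.

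Arrays of a group were alike, the correlation over genes averaging 0.983 within MYC tumours, 0.976 within control livers and 0.882 between the groups. Array medians lay between 6.33 and 6.44. The array weights of limma, lower for an array that departs more from its group, were 0.43 for tumour 4 and 2.23 for tumour 3. Those of the other arrays were 0.84 to 1.21. Olfactory receptor genes, which liver is not known to use, served as a guide to values that do not show a transcript, and 95% of 1027 such genes had means at or under 6.20. For 11 members both group means were at or under this level, and none of the 11 passed in limma (1 at an unadjusted p under 0.05, log2 changes between -0.33 and 0.17). Control liver 3 stood apart in sex-linked genes. The Y-linked gene Eif2s3y read 3.46 there and 8.56 to 9.37 on the other 7 arrays, and the X-inactivation transcript Xist read 11.89 there and 4.86 to 7.12 on the others. The members whose change moved most without this array, Abcd2, Abcg2, Abcb1a, Abcg3 and Abcc4, and Abcd4, whose call was lost without it, are given both ways. A list of 6 marker genes of hepatocytes was used to check the tissue label: all were bright, and the mean of the list was 11.67 to 12.04 in MYC tumours and 12.31 to 12.49 in control livers. All 6 fell, with log2 changes of -0.54 (Hnf4a) to -0.33 (Ttr), and 4 to 5 passed when 1 array was left out (4 without control liver 1 or 4 or tumour 4). In whole-tissue RNA, fewer cells of a type and less RNA per cell cannot be told apart.

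**Figure D1:**
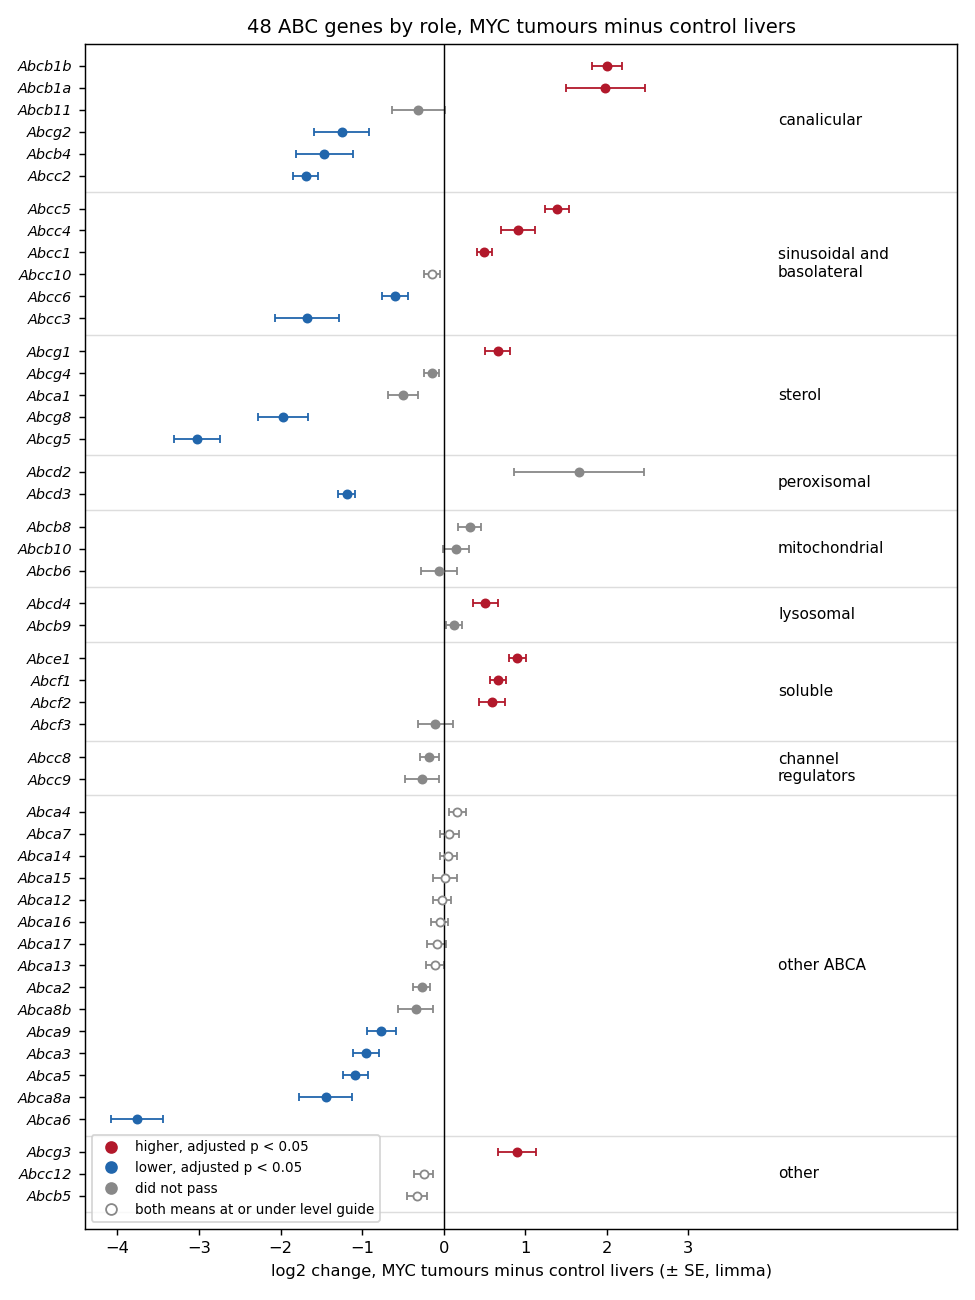
Log2 change (MYC tumours minus control livers, ± SE from limma) of the 48 ABC genes, grouped by where the protein works; red and blue points passed an adjusted p of 0.05, grey points did not, and open points had both means at or under 6.20. Abcb1b and Abcb1a have the largest called rises (2.00 and 1.98), and Abca6 and Abcg5 the largest falls (-3.76 and -3.02).

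Canalicular pumps split in direction. Of 6 members, the multidrug pumps Abcb1a and Abcb1b rose, Abcc2, Abcb4 and Abcg2 fell, and the bile salt export pump Abcb11 did not pass. Abcg5 and Abcg8, which also work at the canalicular membrane, are counted with the sterol transporters below, and both fell. Abcc2, the pump for bilirubin glucuronides and glutathione conjugates, read 9.44, 9.88, 9.59 and 9.31 in MYC tumours 1 to 4, against 11.03, 11.10, 11.31 and 11.55 in control livers 1 to 4. All 4 tumours lay below all 4 controls, and Abcc2 fell 3.23-fold (log2 change -1.69, SE 0.15, adjusted p = 1.43e-05). Abcb4, the floppase that supplies phosphatidylcholine to bile, read 7.49, 8.61, 8.20 and 6.85 in MYC tumours, against 8.67, 9.22, 9.67 and 9.45 in control livers. It fell 2.76-fold (log2 change -1.47, SE 0.35, adjusted p = 0.00903), with no overlap between groups, although tumour 2 came close to control liver 1.

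Abcb11, which pumps bile salts into bile, read 10.60, 11.80, 11.56 and 10.08 in MYC tumours, against 11.38, 11.22, 11.36 and 11.30 in control livers. Tumours 2 and 3 were above every control and tumours 1 and 4 below every control, so the SD was 0.80 among tumours and 0.07 among controls. The log2 change of -0.31 did not pass (SE 0.32, 95% interval -1.02 to 0.40, adjusted p = 0.544). The same tumours, 2 and 3, were also the higher ones for Abcb4. Within each array Abcb11 exceeded Abcb4 by 3.11 to 3.36 in MYC tumours and by 1.69 to 2.72 in control livers. The change of Abcb11 thus lay 1.16 above that of Abcb4 on the log2 scale (exact permutation p = 0.0286, adjusted p = 0.0457 over 8 gene pairs). An exact p of 0.0286 is the smallest that 4 against 4 arrays can give. The adjusted p depends on how many of the 8 pairs reach it, and the pairs were chosen with earlier results of these data known. The change of Abcc2 lay 1.38 below that of Abcb11 (exact permutation p = 0.0286, adjusted p = 0.0457).

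The drug pumps Abcb1a and Abcb1b are the mouse copies of the gene for human P-glycoprotein, which expels hydrophobic drugs from cells. Abcb1b read 6.74, 6.55, 6.61 and 5.98 in MYC tumours, against 4.64, 4.64, 4.08 and 4.53 in control livers. Every tumour exceeded every control, and Abcb1b rose with a log2 change of 2.00 (SE 0.18, adjusted p = 1.64e-05). Since its control mean of 4.47 was under the level guide, the fold of 4.00 is a limit rather than an exact size. Abcb1a read 9.05, 9.94, 9.73 and 7.56 in MYC tumours, against 6.84, 6.97, 8.01 and 6.53 in control livers. Control liver 3 was above tumour 4, and Abcb1a rose 3.95-fold (log2 change 1.98, SE 0.49, adjusted p = 0.0107; 2.29 and 0.00523 without control liver 3). Their measured changes differed by -0.02, but since that of Abcb1b is a limit, this does not show whether they changed alike. These genes are close copies, and whether their probe sets read each other's transcripts was not tested.

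Abcg2, which exports urate and sulphated conjugates, read 8.12, 7.81, 8.17 and 8.05 in MYC tumours, against 9.68, 9.92, 8.04 and 9.51 in control livers. The other 3 controls lay above all tumours and control liver 3 lay among the tumours. Abcg2 fell 2.38-fold (log2 change -1.25, SE 0.34, adjusted p = 0.0185). The change was -1.67 (adjusted p = 1.55e-05) without control liver 3, and the call was lost without control liver 1 (adjusted p = 0.0507) or control liver 2 (0.0560).

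**Figure D2:**
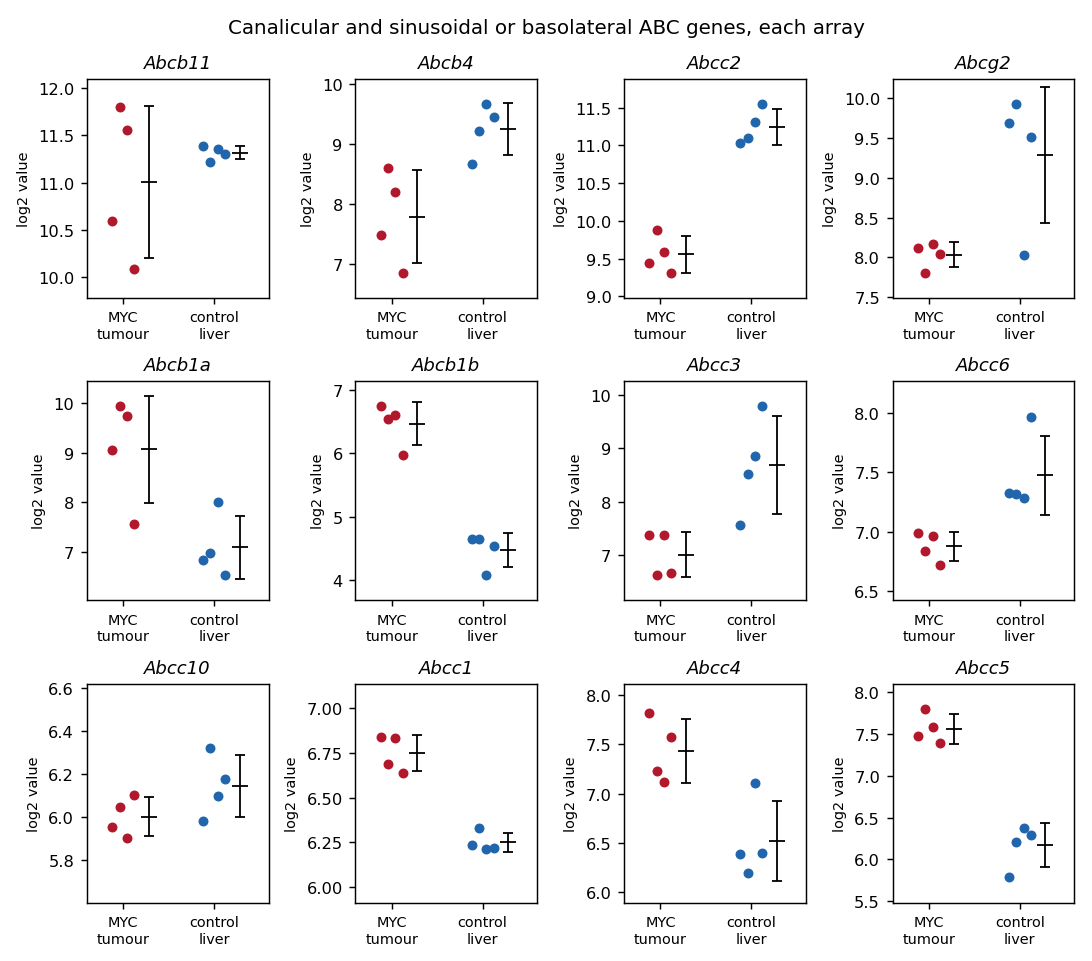
Log2 values of 6 canalicular and 6 sinusoidal or basolateral ABC genes on each array, with MYC tumours left of control livers; points are arrays and bars the mean ± SD of 4 arrays, and each panel has its own axis. Abcb11 is split among tumours (10.08 to 11.80) around a narrow control range (11.22 to 11.38), and Abcc5 is above all controls in every tumour (7.39 to 7.80 against 5.78 to 6.37).

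Basolateral pumps also went both ways, with 3 of 6 members higher, 2 lower and a median log2 change of 0.18. Abcc5, an exporter of cyclic nucleotides and other organic anions, read 7.47, 7.80, 7.58 and 7.39 in MYC tumours, against 5.78, 6.21, 6.37 and 6.29 in control livers. It rose in all 4 tumours (log2 change 1.39, SE 0.14, adjusted p = 4.11e-05). The fold of 2.63 may be a limit, because the control mean of 6.17 lay just under the level guide. Control liver 1 was under the guide and the other controls just above it. Abcc4, which returns bile salts to the blood together with glutathione, read 7.82, 7.23, 7.11 and 7.57 in MYC tumours, against 6.39, 6.19, 7.11 and 6.39 in control livers. It rose 1.88-fold (log2 change 0.91, SE 0.21, adjusted p = 0.00818; 1.11 and 0.000907 without control liver 3), with tumour 3 and control liver 3 level at 7.11. Abcc1, the leukotriene and glutathione conjugate pump, read 6.84, 6.69, 6.83 and 6.64 in MYC tumours, against 6.24, 6.33, 6.21 and 6.22 in control livers, and averaged 6.75 ± 0.10 in MYC tumours and 6.25 ± 0.05 in control livers (SD, n = 4 each). It rose 1.41-fold (log2 SE 0.09, adjusted p = 0.00174), without overlap.

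Abcc3, the basolateral exporter of glucuronides, read 7.38, 6.62, 7.37 and 6.66 in MYC tumours, against 7.56, 8.51, 8.86 and 9.79 in control livers. It fell 3.19-fold (log2 change -1.67, SE 0.39, adjusted p = 0.0086). Tumours were less widely spread than controls (SD 0.42 among tumours and 0.92 among controls), and control liver 1 was close to the highest tumour. Abcc6, which mediates ATP release from hepatocytes and is mutated in pseudoxanthoma elasticum in humans, read 6.99, 6.84, 6.96 and 6.72 in MYC tumours, against 7.33, 7.31, 7.28 and 7.97 in control livers. The groups did not overlap, and it fell 1.51-fold (log2 SE 0.16, adjusted p = 0.0151). Abcc10 read 5.90 to 6.10 in MYC tumours and 5.98 to 6.32 in control livers, with both means under the level guide, and did not pass (log2 change -0.14, adjusted p = 0.359). The change of Abcc4 lay 2.60 above that of the canalicular pump Abcc2 (exact permutation p = 0.0286, adjusted p = 0.0457 over 8 pairs). Tumours lay above all controls for Abcc4, if barely, and below all controls for Abcc2. The permutation p could then only take its smallest value, so it adds nothing to the 2 separate changes. The changes of Abcc3 and Abcc2 differed by 0.02, and that difference did not pass (exact permutation p = 0.971; range -0.28 to 0.28 with 1 array left out).

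Genes that work beside these pumps were examined from a list of 13, of which 12 were measured, with 2 higher and 3 lower. Slc51b, a subunit of the basolateral organic solute transporter that returns bile acids to the blood, read 10.09, 11.16, 10.70 and 7.89 in MYC tumours, against 6.98, 6.46, 6.90 and 6.16 in control livers. It rose 10.1-fold (log2 change 3.34, SE 0.58, adjusted p = 0.00132), and tumour 4 was again the lowest tumour. Slc51a, the other subunit, did not pass in limma (log2 change -0.007, adjusted p = 0.969). Its means, 5.95 in MYC tumours and 5.96 in control livers, lay under the level guide, so a change of the whole transporter is not shown. Atp7b, the copper pump, rose 1.76-fold (log2 SE 0.16). Atp8b1, the canalicular aminophospholipid flippase, and its partner subunit Tmem30a fell by 1.17 and 1.54 on the log2 scale (SE 0.23 and 0.13). Of 12 measured regulators of ABC genes, 7 were lower (6 to 7 with 1 array left out) and 1 higher. Hnf4a stands both in this list and among the hepatocyte markers, and its call was lost without any single array other than tumour 1. Nr1i3, the xenobiotic receptor CAR, changed by -2.26 (SE 0.45), Nr1h4, the bile acid receptor FXR, by -1.20 (SE 0.14) and Ppara, the fatty acid receptor, by -1.05 (SE 0.17). Srebf2, the regulator of cholesterol synthesis, was the 1 higher member (0.41, SE 0.13), and the call did not hold when control liver 1, 2 or 3 or tumour 1 or 2 was left out.

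**Figure D3:**
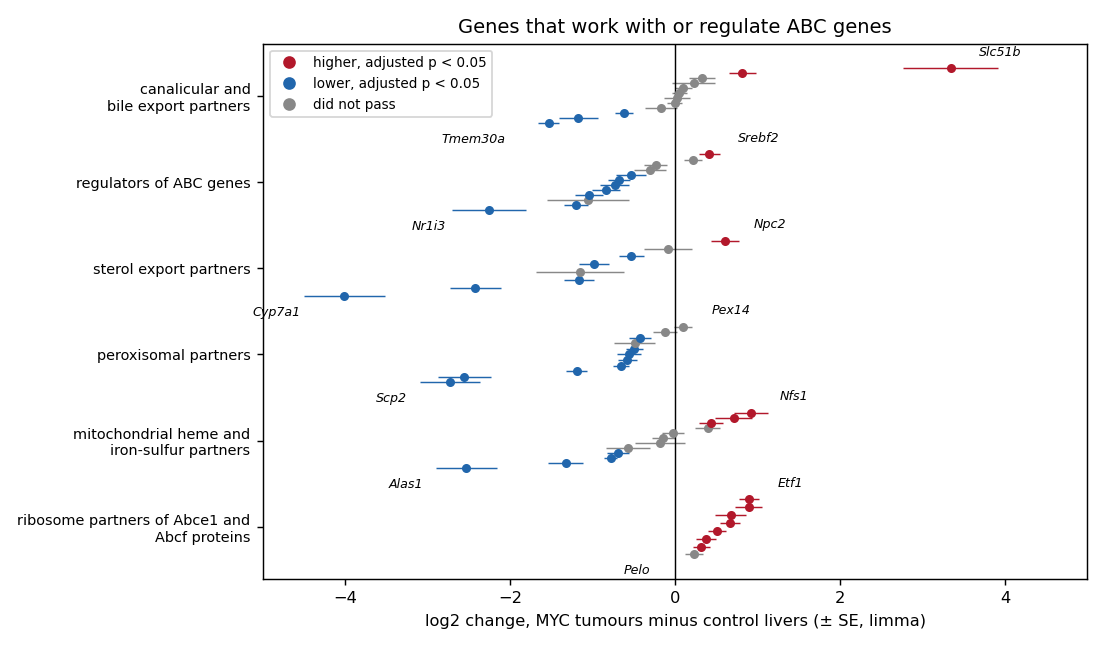
Log2 change (MYC tumours minus control livers, ± SE from limma) of genes that work with or regulate ABC genes, in 6 lists; red and blue points passed an adjusted p of 0.05, and the gene with the highest and lowest change of each list is named. Peroxisomal partners have 8 of 11 lower and none higher, and ribosome partners 7 of 8 higher and none lower.

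Sterol transporters fell where they serve bile, and the cholesterol exporter Abcg1 rose. Abcg5 and Abcg8 form the dimer that secretes sterols at the canalicular membrane. Abcg5 read 5.53, 6.32, 6.86 and 6.41 in MYC tumours, against 9.43, 9.07, 8.83 and 9.88 in control livers. Every tumour was far below every control, and Abcg5 fell 8.13-fold (log2 change -3.02, SE 0.29, adjusted p = 2.16e-05). Abcg8 read 6.11, 6.48, 6.73 and 6.23 in MYC tumours, against 7.92, 8.22, 7.87 and 9.43 in control livers. It fell 3.92-fold without overlap (log2 change -1.97, SE 0.31, adjusted p = 0.000678). The measured fall of Abcg5 was the larger by 1.05 on the log2 scale (exact permutation p = 0.0286, adjusted p = 0.0457 over 8 pairs). Within each array, Abcg5 minus Abcg8 was -0.58 to 0.19 in MYC tumours and 0.45 to 1.51 in control livers. The tumour means of both, 6.28 and 6.39, lay just above the level guide, and tumour 1 was under it for both. Both folds may therefore be limits, and the difference does not show that Abcg5 fell further.

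These genes lie head to head, and their promoter windows (250 bases before to 50 after the start site, RefSeq, build GRCm38.p6) share 209 bases. They are shown because both genes fell and because 1 stretch of DNA lies between their start sites. Capitals mark only GATAAG or its reverse complement CTTATC, letters that GATA factors can bind. Related forms, such as agataa in the Abcg5 window, were not marked.
Abcg5, chr17:84682962-84683261, minus strand: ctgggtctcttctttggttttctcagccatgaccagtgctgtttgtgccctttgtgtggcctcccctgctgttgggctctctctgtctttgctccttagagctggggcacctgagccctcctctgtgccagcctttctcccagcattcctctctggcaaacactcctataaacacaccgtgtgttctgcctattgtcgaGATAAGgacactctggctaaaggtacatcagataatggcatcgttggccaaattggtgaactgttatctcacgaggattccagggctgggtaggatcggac
Abcg8, chr17:84682871-84683170, plus strand: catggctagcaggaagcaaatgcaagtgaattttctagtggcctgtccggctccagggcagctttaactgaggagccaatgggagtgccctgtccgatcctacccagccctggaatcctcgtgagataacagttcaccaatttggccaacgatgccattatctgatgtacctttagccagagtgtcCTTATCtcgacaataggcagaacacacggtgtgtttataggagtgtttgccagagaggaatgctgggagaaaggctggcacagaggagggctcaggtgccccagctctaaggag
The same copy of the motif stands in both windows. Of 45 windows of 38 members, 5 held GATAAG on either strand (Abcg5, Abcg8, Abcc2, Abcb4 and Abcg2, with 1 copy shared by Abcg5 and Abcg8). All 5 genes were lower in MYC tumours, beside 27.1% of members and 12.7% of all genes. The share lower among all genes holding the letters was not counted. The letters stood in 7.44% of all 32851 windows. The motifs described in these paragraphs were chosen from 14 looked at after the changes of the genes were known, and a match describes the letters only. For the inverted repeat with a 1-base spacer that the bile acid receptor can bind, 1 exact spelling was matched on both strands. It stood in no member's window and in 0.0274% of all windows (9 of 32851). A spelling this rare was unlikely to stand in any of 45 windows, and copies with a differing letter were not matched. Its absence therefore does not show that the members lack a site for this receptor.

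Abca1, which loads cholesterol onto apolipoprotein A-I, read 8.62, 8.71, 9.10 and 8.20 in MYC tumours, against 9.18, 8.96, 9.03 and 9.45 in control livers. Its log2 change of -0.50 did not pass (SE 0.18, 95% interval -0.90 to -0.09, adjusted p = 0.0668), and it passed without tumour 3 (-0.64, adjusted p = 0.0179) and with quantile normalisation (-0.56, 0.0210). Abcg1, which passes cholesterol to high-density lipoprotein and is known from macrophages, read 7.86, 7.35, 7.998 and 7.38 in MYC tumours, against 7.03, 6.99, 6.85 and 7.06 in control livers. All tumours were above all controls, and Abcg1 rose 1.58-fold (log2 change 0.66, SE 0.15, adjusted p = 0.00772). The change of Abca1 lay 1.16 below that of Abcg1 (exact permutation p = 0.0286, adjusted p = 0.0457). Abcg4, a related sterol exporter known from brain, read 6.58 to 6.75 in MYC tumours and 6.62 to 6.88 in control livers and did not pass (log2 change -0.15, adjusted p = 0.307). Among 5 measured macrophage markers, 2 rose and 1 fell: Cd68 changed by 2.11 (SE 0.26), Cd5l by 0.79 (SE 0.24, highest adjusted p = 0.0863 with 1 array left out, when control liver 2 or 4 or tumour 1 or 3 ended the call) and Clec4f, of resident Kupffer cells, by -1.75 (SE 0.18). The mean of the list was 7.55 to 8.08 in MYC tumours and 7.22 to 8.05 in control livers, no marker was under the level guide, and the part of these cells in the result for Abcg1 was not tested.

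Of 8 measured sterol partners, 5 were lower (4 to 5 with 1 array left out) and 1 higher. Cyp7a1, the rate-limiting enzyme of bile acid synthesis, changed by -4.01 (SE 0.49), Cyp27a1, a sterol hydroxylase, by -2.43 (SE 0.31) and Apoe by -1.17 (SE 0.19). Npc2, which carries cholesterol inside lysosomes, rose by 0.60 (SE 0.17), and this did not pass when control liver 2, tumour 1 or tumour 3 was left out.

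The measured peroxisomal members differed in pattern. Abcd3, which imports branched-chain fatty acids and bile acid precursors, read 10.25, 10.17, 10.28 and 10.34 in MYC tumours, against 11.18, 11.50, 11.61 and 11.51 in control livers. Both groups were tight, and Abcd3 fell 2.28-fold (log2 change -1.19, SE 0.11, adjusted p = 1.75e-05). Abcd2, an importer of very long-chain fatty acids, read 8.80, 9.27, 9.61 and 8.33 in MYC tumours, against 5.44, 6.44, 10.06 and 7.43 in control livers. Control liver 3 was above every tumour and the other 3 controls were below every tumour. With all arrays Abcd2 did not pass (log2 change 1.66, SE 0.79, adjusted p = 0.156), and without control liver 3 the change was 2.57 (adjusted p = 0.00151). Without control liver 1 it was 1.03 (adjusted p = 0.359), the lowest with 1 array left out. Of 11 measured peroxisomal partners, 8 fell (7 to 8 with 1 array left out) and none rose. Scp2, a sterol carrier and thiolase, changed by -2.73 (SE 0.36), Pex11a, of peroxisome division, by -2.56 (SE 0.32) and Hsd17b4, of peroxisomal oxidation, by -1.20 (SE 0.13). For Scp2, control liver 3 read 10.23 and the other controls 11.93 to 12.17, against 8.79 to 8.94 in MYC tumours. The call for Scp2 held with each array left out (highest adjusted p = 0.00125 in limma).

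**Figure D4:**
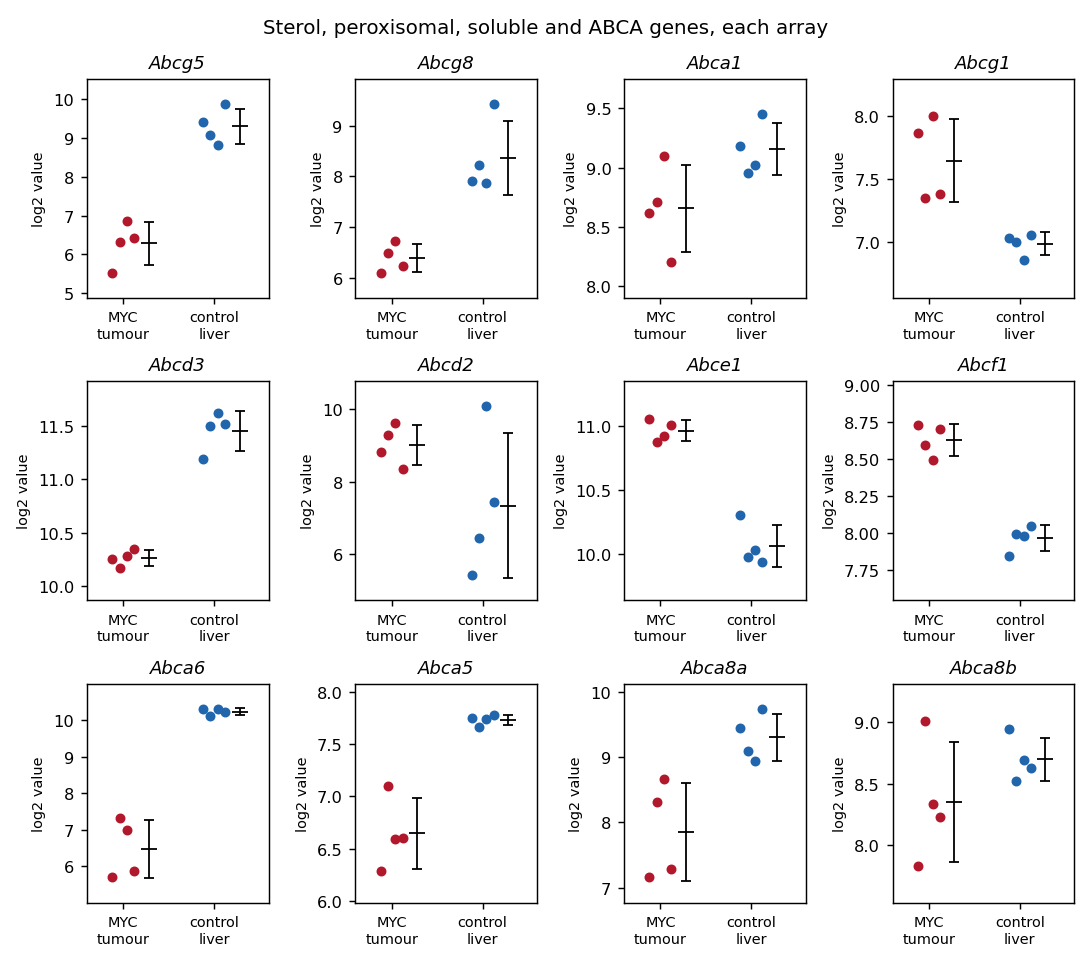
Log2 values of sterol, peroxisomal, soluble and ABCA members on each array, with MYC tumours left of control livers; points are arrays, bars the mean ± SD of 4 arrays, and each panel has its own axis. Abcd2 has 1 control at 10.06 above all tumours (8.33 to 9.61), and Abca6 shows the widest gap (5.70 to 7.32 in tumours, 10.11 to 10.31 in controls).

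The 4 members with the largest gap between control liver 3 and the other controls were picked after the values were seen. Control liver 3 exceeded the mean of the other 3 by 3.62 for Abcd2, 1.23 for Abcb1a and 0.83 for Abcg3, and lay 1.67 below it for Abcg2. In these 4 members it was displaced toward the tumours, as it was in Abcc4 (0.79 above the other controls), Abcg8 (-0.65) and Abcg5 (-0.63). In Abcb4 (0.56 above the other controls) and Abcb1b (-0.53) control liver 3 was displaced away from the tumours. The 4 tumours, by contrast, had the Y-linked gene Eif2s3y at 8.56 or above, near the other controls. With 1 such array in the study, sex and any other property of that mouse cannot be told apart.

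**Figure D5:**
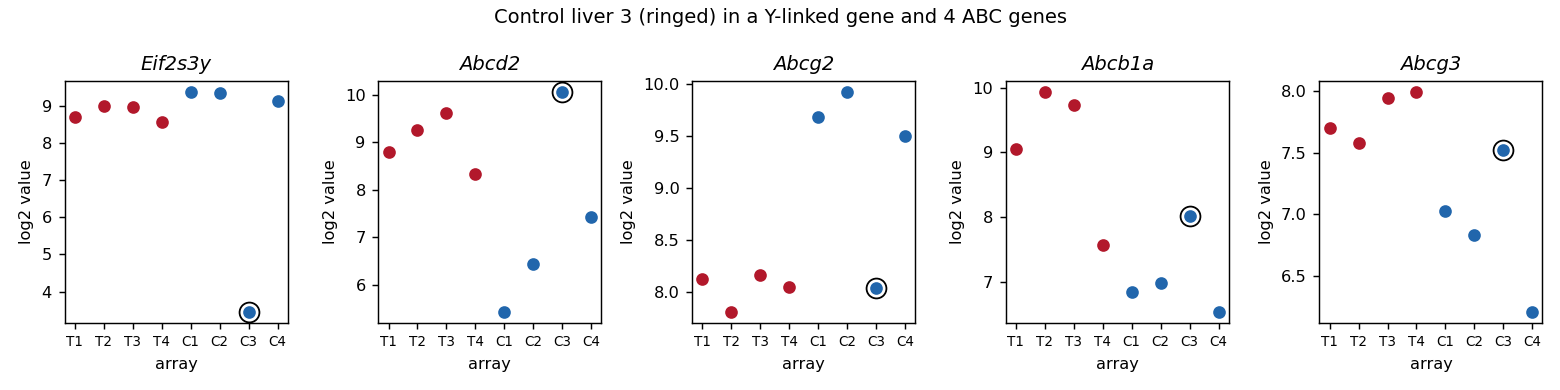
Log2 values of the Y-linked gene Eif2s3y and 4 ABC genes on each array, with MYC tumours (T1 to T4) left of control livers (C1 to C4) and control liver 3 ringed. Control liver 3 reads 3.46 for Eif2s3y, and for Abcd2 (10.06), Abcg2 (8.04), Abcb1a (8.01) and Abcg3 (7.53) it sits nearer to the tumours than the other controls do.

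None of the 3 mitochondrial members passed in limma, and 1 had an unadjusted p under 0.05. Abcb8, linked to iron export, read 6.73, 6.37, 6.67 and 6.47 in MYC tumours, against 6.26, 6.03, 6.12 and 6.57 in control livers. The groups overlapped through control liver 4, and the log2 change was 0.32 (95% interval 0.02 to 0.62, adjusted p = 0.113; 0.42 and 0.0292 without control liver 4). Abcb10, of heme synthesis, read 7.10, 6.75, 6.66 and 6.48 in MYC tumours, against 6.74, 6.42, 6.37 and 6.87 in control livers (log2 change 0.15, 95% interval -0.20 to 0.50). Abcb6, a porphyrin transporter, read 7.69, 7.19, 7.55 and 6.78 in MYC tumours, against 7.13, 7.31, 7.12 and 7.88 in control livers (log2 change -0.06, interval -0.55 to 0.43). Of 12 measured partners in heme and iron-sulfur synthesis, 4 fell and 3 rose. Alas1, the first enzyme of heme synthesis, changed by -2.54 (SE 0.37), Fech, ferrochelatase, by -1.33 (SE 0.22) and the cysteine desulfurase Nfs1 by 0.91 (SE 0.21). When control liver 1, 2 or 3 or tumour 3 was left out, 1 of the 3 rises passed.

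The soluble members were higher in 3 of 4 cases. Abce1, which splits ribosomes after termination, read 11.05, 10.88, 10.92 and 11.01 in MYC tumours, against 10.30, 9.97, 10.03 and 9.93 in control livers. It rose 1.87-fold without overlap (log2 change 0.90, SE 0.11, adjusted p = 9.34e-05). Abcf1, which promotes translation initiation, read 8.73, 8.59, 8.49 and 8.70 in MYC tumours, against 7.84, 7.99, 7.98 and 8.05 in control livers, and rose 1.58-fold (log2 SE 0.09, adjusted p = 0.000372). Abcf2 averaged 8.08 ± 0.23 in MYC tumours and 7.48 ± 0.27 in control livers (SD, n = 4 each), with control liver 4 above tumour 4. It rose 1.51-fold (adjusted p = 0.0162), a call lost without tumour 1 (log2 change 0.51). Abcf3 did not pass (log2 change -0.10, 95% interval -0.58 to 0.37). The changes of Abce1 and Abcf2 differed by 0.31, which did not pass (exact permutation p = 0.229; range 0.15 to 0.40 with 1 array left out, lowest without control liver 4). Of 8 measured ribosome partners, 7 rose and none fell, among them the release factor Etf1 (0.89, SE 0.12) and the initiation factor subunit Eif2s3x (0.89, SE 0.16). Eif6, which keeps ribosomal subunits apart, changed by less (0.67, SE 0.18; the call ended without control liver 2, tumour 1 or tumour 3). When control liver 2, tumour 1 or tumour 3 was left out, 4 of the 7 passed.

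The E-box CACGTG, which MYC binds together with MAX, stood in 6 of 45 windows of the 38 members, beside 7.15% of all windows. These windows belonged to 6 members. Of the 6, Abcf1 and Abcc4 rose, Abca8a fell, and Abca1, Abca8b and Abca15 did not pass, and Abce1 held none. The windows of the 3 that passed are shown because the same letters stand in genes that changed in opposite directions; capitals mark the E-box (both strands searched), whose reverse complement is itself.
Abcf1, chr17:35969701-35970000, minus strand: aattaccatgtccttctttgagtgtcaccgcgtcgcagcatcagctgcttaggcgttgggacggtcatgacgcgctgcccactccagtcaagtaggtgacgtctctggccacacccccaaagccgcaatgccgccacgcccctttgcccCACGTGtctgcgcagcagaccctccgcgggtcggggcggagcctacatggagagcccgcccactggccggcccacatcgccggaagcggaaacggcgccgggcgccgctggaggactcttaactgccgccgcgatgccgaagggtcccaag
Abcc4, chr14:118706170-118706469, minus strand: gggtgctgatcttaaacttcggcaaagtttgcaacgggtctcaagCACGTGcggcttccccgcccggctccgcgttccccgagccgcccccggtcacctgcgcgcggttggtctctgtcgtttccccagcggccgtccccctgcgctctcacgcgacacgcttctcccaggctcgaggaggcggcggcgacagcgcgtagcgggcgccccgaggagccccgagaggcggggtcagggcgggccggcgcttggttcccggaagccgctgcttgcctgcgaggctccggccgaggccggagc
Abca8a, chr11:110095888-110096187, minus strand: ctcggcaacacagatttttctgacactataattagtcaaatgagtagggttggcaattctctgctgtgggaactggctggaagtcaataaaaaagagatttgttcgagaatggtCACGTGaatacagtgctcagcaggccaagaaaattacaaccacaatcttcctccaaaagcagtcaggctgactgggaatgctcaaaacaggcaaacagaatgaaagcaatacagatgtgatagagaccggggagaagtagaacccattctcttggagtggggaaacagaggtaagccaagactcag
Relative to the start site, the first base of the E-box lay at -101 in Abcf1, -205 in Abcc4 and -136 in Abca8a.

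The remaining ABCA genes held the largest fall. A run of 5 of them, Abca8b, Abca8a, Abca9, Abca6 and Abca5, are neighbours in that order on chromosome 11, and 4 of the 5 fell. Abca6 read 5.70, 7.32, 6.98 and 5.88 in MYC tumours, against 10.29, 10.11, 10.31 and 10.22 in control livers. The controls were close together and the tumours far below, and Abca6 fell 13.6-fold (log2 change -3.76, SE 0.32, adjusted p = 9.81e-06). Tumours 1 and 4 lay under the level guide, so this fold may be a limit. Abca8a read 7.16, 8.31, 8.67 and 7.29 in MYC tumours, against 9.44, 9.09, 8.94 and 9.74 in control livers, and fell 2.73-fold (log2 SE 0.33, adjusted p = 0.00671). Abca5, a lysosomal lipid transporter, read 6.28, 7.10, 6.59 and 6.61 in MYC tumours, against 7.75, 7.66, 7.74 and 7.78 in control livers, and fell 2.12-fold (log2 SE 0.15, adjusted p = 0.000334). Tumours 2 and 3 were above tumours 1 and 4 for Abca6 and Abca8a, as they were for Abcb11 and Abcb4.

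Abca9 also fell, at a low level, with 5.96 ± 0.37 in MYC tumours and 6.73 ± 0.18 in control livers (SD, n = 4 each; log2 change -0.77, SE 0.18, adjusted p = 0.0078), so its fold is a limit. Abca8b, next to Abca8a, read 7.84, 9.01, 8.33 and 8.23 in MYC tumours, against 8.94, 8.52, 8.69 and 8.62 in control livers, and did not pass (log2 change -0.34, adjusted p = 0.284; -0.56 and 0.0218 without tumour 2). The genes of this cluster are similar copies, and sharing of transcripts between their probe sets was not tested. Outside the cluster, Abca3, the lipid pump of lung lamellar bodies, read 7.16 to 7.75 in MYC tumours and 8.25 to 8.80 in control livers and fell 1.94-fold (log2 SE 0.16, adjusted p = 0.000948). Abca2 did not pass (log2 change -0.27, adjusted p = 0.0808), and the other 8, Abca4, Abca7 and Abca12 to Abca17, had both means at or under 6.20.

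Abcg3, a rodent gene related to Abcg2, read 7.70, 7.58, 7.94 and 7.99 in MYC tumours, against 7.03, 6.84, 7.53 and 6.21 in control livers. It rose 1.87-fold (log2 change 0.90, SE 0.24, adjusted p = 0.0147; 1.11 and 0.00197 without control liver 3), with control liver 3 just under the tumours. The lysosomal cobalamin transporter Abcd4 rose 1.43-fold (log2 change 0.51, SE 0.15, adjusted p = 0.0301), a call lost without control liver 2, 3 or 4 or tumour 2 (adjusted p 0.0567 without control liver 3 to 0.0726 without control liver 4). The lysosomal peptide transporter Abcb9 did not pass (log2 change 0.13, adjusted p = 0.41). The potassium channel regulators Abcc8 and Abcc9 did not pass in limma, adjusted or unadjusted (log2 changes -0.18 and -0.27); Abcc9, a gene of pericytes among other cells, passed without tumour 3 (-0.50, adjusted p = 0.0219). Of 6 stellate and pericyte markers 2 fell and none rose, and the mean of the list was 6.39 to 6.88 in MYC tumours and 7.14 to 7.35 in control livers. Abcb5 and Abcc12 had both means under the level guide. Of ABC genes with other symbols, the antigen peptide transporter subunit Tap1 fell by 0.57 (SE 0.14), while its partner Tap2 (-0.16) and the chloride channel Cftr (0.10) did not pass.

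Other cell types were checked by their markers, and 28.9% of all genes tested passed in either direction. Of 6 endothelial markers 3 fell and none rose, with list means of 6.79 to 7.20 in MYC tumours and 7.41 to 7.93 in control livers. Of 5 bile duct markers 1 rose and 1 fell (5.66 to 6.03 in MYC tumours, 5.67 to 5.77 in control livers), with 3 of the 5 at or under the level guide. The rise was of Epcam (log2 change 0.88, SE 0.17), and it passed with each array left out (highest adjusted p = 0.00885 in limma). Its means, 6.16 in MYC tumours and 5.28 in control livers, both lay under the level guide. The fall, of Sox9 (log2 change -0.32, SE 0.10), passed without tumour 4 and was lost without any other single array, control liver 3 included. None of 5 T and B cell markers and none of 4 erythroid markers passed in limma, and 0 had an unadjusted p under 0.05; 3 of the 5 and 1 of the 4 lay at or under the level guide, where little change could be seen. The part of endothelial, stellate and bile duct cells in the changes of ABC genes was not tested.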

How the data were processed

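The log2 values are those deposited by the authors, with 34760 probe sets on each array. RMA and R 3.0.2 are named per the submitters' processing notes; the RMA settings, summary level and build are not given in the sources used here. Probe sets were named with the platform annotation, updated through a RefSeq gene table: 21640 had 1 symbol, giving 19937 genes. Log2 values of the groups were compared in R 4.3.3 by limma 3.58.1 (functions lmFit, then eBayes; no covariate). P-values were adjusted by the Benjamini-Hochberg method across the 19937 genes. Errors are SD of 4 arrays or SE from limma. The labels do not say which mouse each sample came from, so p-values measure the spread between these samples, which may be technical. Arrays give no counts, and 4 per group limits precision. For 8 gene pairs, changes were compared with a two-sided exact permutation over the 70 assignments of arrays. The fit was tested on simulated data. Members, lists, pairs and motifs were chosen with earlier results of these data known. All 48 members could be named. Arrays are given singly for the main roles and for called changes of at least 2-fold. Up to 3 partners per list were named plus 1 in the rarer direction, and Slc51a beside Slc51b. Other choices tried were quantile normalisation, median subtraction, leaving out the dimmest 33.3% of genes, trend and robust variance, array weights, a replicate block, the mean of probe sets, a 1.5-fold minimum and leaving out each array. Tables used Python 3.11.15 and pandas 2.3.3.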

Additional observations from a re-analysis of the deposited data

Results flagged for a closer look

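In 96 groups of 4 arrays (48 members in MYC tumours and in control livers), 5 held 1 array far from the other 3, the gap to the nearest exceeding Dixon's 95% critical share of the group's range; chance gives about 1 in 20 such groups. In MYC tumours, Abca4 read 5.93 in tumour 4 and 5.56 to 5.59 in the others, and Abcc8 read 6.28 in tumour 4 and 6.02 to 6.04 in the others. Abcb5 read 4.26 in tumour 1 and 4.64 to 4.71 in the others, and Abcb9 read 6.41 in tumour 1 and 6.50 to 6.52 in the others. Among the controls, Abcc6 stood at 7.97 in liver 4, with 7.28 to 7.33 elsewhere. Of these 5 genes, Abcc6 passed in limma, also with each array left out in turn.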

How the results depend on the processing

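Of the 24 calls, 21 held in every alternative other than the test against a 1.5-fold change in which the gene was measured; Abcg2, Abcd4 and Abcf2 each lost theirs when 1 array was left out. With 1 array left out, 10 to 11 members were higher and 12 to 15 lower; peroxisomal, mitochondrial and lysosomal members had 0 to 1 higher, and channel regulators and other members 0 to 1 lower. Against 1.5-fold, 2 members were higher and 6 lower: canalicular pumps kept 1 higher and 1 lower, basolateral pumps 1 higher and 0 lower, other ABCA genes 2 lower, while sterol, lysosomal, soluble and other members had 0 higher. Without the dimmest genes, 1 canalicular member was higher, and the medians were -1.25 (canalicular), -0.86 (other ABCA) and 0.90 (other), since 10 members were no longer tested. With array weights, 1 mitochondrial member was higher and 1 other member lower. Quantile normalisation gave 11 higher and 15 lower. Members that did not pass turned sign as follows: Abca12 0.048 and Abca16 0.045 with quantile normalisation, and Abca15 -0.10, Abcb6 0.10 and Abcf3 0.026 with array weights. With 1 array left out their ranges were -0.069 to 0.059 (Abca12), -0.13 to 0.093 (Abca15), -0.10 to 0.025 (Abca16), -0.19 to 0.11 (Abcb6) and -0.21 to 0.088 (Abcf3). The differences of changes ranged from -0.28 to 0.42 for Abcb1a and Abcb1b (where the change of Abcb1b is a limit) and from -0.28 to 0.28 for Abcc3 and Abcc2, with no test, because 3 against 4 arrays cannot go below p = 0.0571 by exact permutation. Unless stated, the cause was not tested. Same-numbered arrays did not deviate together (r -0.32 to 0.05); the fit with the replicate number as a block gave 11 higher and 13 lower. Genes near the level guide of 6.20 have little range in which a fall could be seen.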
